A study of Mus musculus with 6 samples.

Results

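Elastic fibre genes in renal fibroblasts were examined as a group of 10 of the 34745 genes listed. They were elastin (Eln), the fibrillins Fbn1 and Fbn2, the microfibril-associated proteins Mfap2, Mfap4 and Mfap5, and the fibulins Fbln1, Fbln2, Fbln5 and Efemp2 (fibulin-4). The members were chosen by name as components of the elastic fibre, with the counts of these same libraries in view, so their differences between the groups are given as descriptions. Where members are counted past a threshold, the count only describes where they lie in the fit over all genes and is no test of the group. A gene listed on several rows would have been read from its row with most counts, and 0 of the members were.

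Primary renal fibroblasts of wild-type (WT) mice, the cells that lay down the matrix of the kidney, adhered for 6 h in all libraries. In 3 libraries they were kept alone without treatment, for a time that was not given in the sources used here. In the other 3 libraries WT fibroblasts were then cultured for 24 h beneath a transwell insert with 0.4 µm pores. The insert held Th17 cells, helper T cells that make interleukin-17. The Th17 cells had been induced from splenic CD4+ T cells with antibodies to CD3 and CD28 and with cytokines, and only the fibroblasts of the lower chamber were collected. The comparison asked which fibroblast transcripts differ in the presence of Th17 cells. The study's animals were Balb/c mice. The age and sex of the mice, and whether libraries of a group came from separate cultures or animals, were not given in the sources used here, so the errors and p-values cover only how these libraries differ among themselves, which may be technical.

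An elastic fibre has a core of crosslinked elastin laid on a scaffold of microfibrils. Fibrillins are the rods of the microfibril, the MAGP proteins (Mfap2 and Mfap5) bind along them, and fibulins bring tropoelastin and the crosslinking lysyl oxidases to the scaffold. The fibres give arteries and lung their recoil, occur in the kidney mainly in vessel walls and interstitium, and hold latent TGF-beta through the fibrillins.

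Library totals were between 12050529 and 13209581 fragments. A floor of 3 counts, below which no fold change is given except as a bound, corresponded to between 0.223 and 0.254 CPM (counts scaled to a common library total with TMM factors), and such floors cover counting error only. All 10 of the fibroblast markers were detected, with a summed level of 34080 to 35970 CPM alone and 14240 to 15940 CPM with Th17 cells. Most of this sum was Col1a1 (mean 15070 CPM alone and 6228 with Th17 cells), Col1a2 (12460 and 4621) and Col3a1 (4364 and 961). At an adjusted p below 0.05 (edgeR quasi-likelihood test) 8 markers were lower, 1 (Dcn) was higher and S100a4 was not called. With a fold change above 2 as well, 4 were lower. Pdgfra, Pdgfrb, Vim and Thy1 had log2 fold changes between -0.53 and -0.34. All 7 smooth muscle and pericyte markers, cells that also make elastic fibres, were lower at that adjusted p, 4 of them with a fold change above 2. They summed to 7298 to 7852 CPM alone and 2971 to 3751 CPM with Th17 cells, mostly Acta2 (mean 5280 and 2424 CPM). The 6 macrophage markers summed to 46.4 to 48.3 CPM alone and 8.14 to 10.4 CPM with Th17 cells, and the 4 that could be tested were lower. The 5 endothelial markers summed to 6.79 to 7.52 CPM alone and 1.60 to 2.75 CPM with Th17 cells, with Emcn at 0 in every library. Most of this difference was Kdr (mean 5.546 CPM alone and 0.1265 with Th17 cells). Pecam1 (1.235 and 1.322 CPM) was not called, and Tek (0.2153 and 0.6147 CPM) could not be tested. The 6 epithelial markers summed to 1.40 to 2.69 CPM alone and 0.837 to 1.18 CPM with Th17 cells. The 10 T cell markers summed to 5.36 to 6.48 CPM alone and 2.21 to 2.67 CPM with Th17 cells, and Cd3d, Cd2, Il17a and Il17f were at 0 in all 6 libraries. The part of these cell types in the results below was not tested, and in bulk RNA fewer cells of a type and less RNA per cell cannot be told apart.

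Among the member fibulins, those with the largest (Fbln5) and smallest (Efemp2) difference, and Fbln1 between them, are shown by sequence. Each sequence is the 250 bases before a RefSeq transcription start (mouse build GRCm38.p6, 5′ to 3′ on the gene's strand). They are shown because these windows overlap no exon or gene of GENCODE M21. Capitals mark the GC box GGGCGG on either strand. The Fbln5 window lies at chr12:101819120-101819369 on the minus strand, the Fbln1 window at chr15:85205699-85205948 on the plus strand and the Efemp2 window at chr19:5473696-5473945 on the plus strand.
Fbln5: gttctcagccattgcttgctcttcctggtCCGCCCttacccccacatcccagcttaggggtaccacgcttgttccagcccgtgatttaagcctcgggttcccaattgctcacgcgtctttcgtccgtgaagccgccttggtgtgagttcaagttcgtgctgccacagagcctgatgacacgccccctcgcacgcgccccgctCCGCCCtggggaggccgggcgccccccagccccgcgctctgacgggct
Fbln1: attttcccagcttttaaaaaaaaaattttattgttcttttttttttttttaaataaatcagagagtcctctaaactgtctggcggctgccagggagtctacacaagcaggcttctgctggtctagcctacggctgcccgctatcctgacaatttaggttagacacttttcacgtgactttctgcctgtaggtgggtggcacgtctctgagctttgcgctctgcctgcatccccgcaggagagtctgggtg
Efemp2: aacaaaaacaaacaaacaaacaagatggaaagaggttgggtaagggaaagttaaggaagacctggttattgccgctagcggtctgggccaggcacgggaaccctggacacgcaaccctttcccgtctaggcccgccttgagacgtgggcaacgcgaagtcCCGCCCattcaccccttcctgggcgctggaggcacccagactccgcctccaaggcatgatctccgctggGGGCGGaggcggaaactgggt
The Fbln5 window held 2 GC boxes, with first bases at -221 and -48 from the start, and the Efemp2 window also held 2, at -90 and -21. The Fbln1 window held none. GC content was 65.2% in the Fbln5 window, 46.4% in the Fbln1 window and 59.2% in the Efemp2 window, against a median of 52.4% over all 32817 windows in the table.

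RefSeq windows were at hand for 6 of the 10 members (Fbn1, Mfap2, Fbln1, Fbln2, Fbln5 and Efemp2), with 11 windows among them. The GC box was in 8 of these 11 windows, against 32.7% of all windows. Each of the 6 genes had it in at least 1 window, a count per gene for which no share over all genes was made. The 11 windows are not separate, since 2 windows of Efemp2 overlap each other, as do the 2 of Fbln1. Windows not printed above overlap exons of their own gene in GENCODE M21. This overlap runs from 1 base for the second Fbln5 window to all 250 bases for Fbn1 and Fbln2. Their GC content ran from 46.4% (Fbln1) to 78.8% (Efemp2), against the median of 52.4% over all windows. The TATA box TATAAA was in 0 of the 11 and in 12.4% of all windows, and the AP-1 motif TGANTCA in 0 of the 11 and in 6.8% of all windows. The TEAD motif GGAATG, searched because the study follows the factor TEAD4, was in 1 of the 11, at -176 of a second Mfap2 start, and in 12.6% of all windows. Each motif was searched on both strands and none of them shares its letters with another, although GC boxes can overlap each other. These matches describe letters in the window and say nothing of a factor's binding.

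All 10 members had fewer normalised reads with Th17 cells in every library than in any library of fibroblasts alone. No overlap in that direction was also found for 26.1% of the 13088 genes tested. The median log2 fold change of the members was -1.09, against 0.004 for all genes tested. Setting Eln and Mfap4, the genes at the floor, at their bounds could not change this median, as both stay below its middle values (Fbln1 and Fbln2). Past an adjusted p of 0.05 and a fold change of 2 in the edgeR fit were 5 members (Eln, Fbn2, Mfap4, Fbln1 and Fbln5), all lower. Over all genes 7.78% were past this threshold in the lower and 3.87% in the higher direction. Without the fold limit all 10 members were past it as lower, against 20.0% of all genes. Since this contrast was in view when the members were chosen, nothing is read from these shares.

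**Figure D1:**
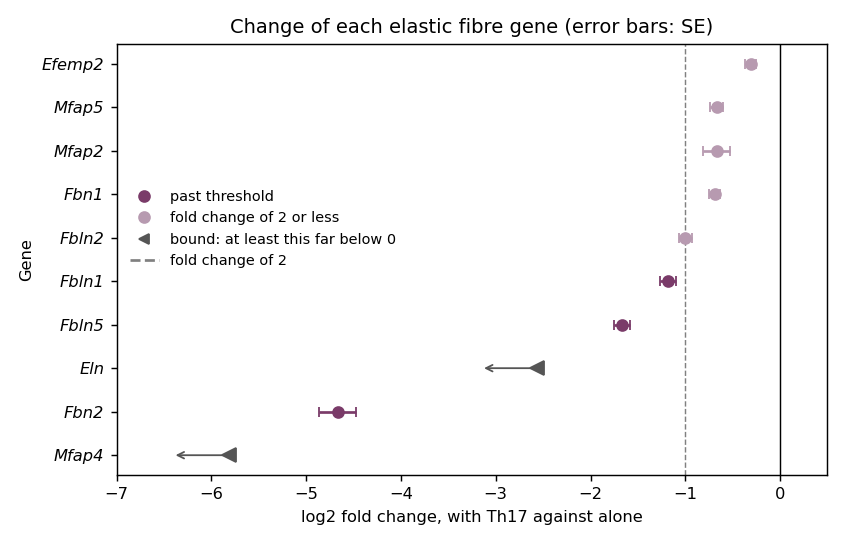
Log2 fold change of each elastic fibre gene (with Th17 cells against alone), with bars for the standard error, arrows for genes given only as a bound and a dashed line at a fold change of 2. All 10 genes lie below 0, from -0.31 for Efemp2 to -4.67 for Fbn2 among those drawn with a fitted value, and Eln and Mfap4 are drawn at their bounds.

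Eln (ENSMUSG00000029675, chr5:134702593-134747323 on the minus strand, GRCm38), which encodes the elastin core, was the least abundant member. It had 12, 25 and 15 counts in the libraries of fibroblasts alone and 0 counts in all 3 libraries with Th17 cells. The groups did not overlap, and the mean alone was 1.39 ± 0.533 CPM (SD, n = 3). Against the floor of 3 counts per library Eln was at least 5.9-fold lower with Th17 cells. With a coefficient of variation of 38.3% alone, the highest of the members, its level rests on few counts. The antisense gene Gm30003 covers 282 bases of Eln on the opposite strand and was listed at 0 in every library.

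The fibrillins differed from each other in size of change. Fbn1 (ENSMUSG00000027204, chr2:125300594-125507993, minus strand), the main fibrillin of adult microfibrils, had 17894, 16850 and 15775 counts alone and 11214, 11352 and 10322 counts with Th17 cells. The groups were well apart, the mean going from 1351 ± 32.6 to 837 ± 53.3 CPM. This was 1.61-fold lower, a log2 fold change of -0.69 (SE 0.061). Gm9913 overlaps 2793 bases of Fbn1 on the opposite strand and had 5 to 12 counts per library.

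Fbn2 (ENSMUSG00000024598), a fibrillin known mainly from developing tissue, had 246, 238 and 179 counts alone and 10, 8 and 9 counts with Th17 cells. All libraries with Th17 cells were more than an order of magnitude below those alone. The mean went from 17.7 ± 2.21 to 0.686 ± 0.0576 CPM, 25.8-fold lower (log2 fold change -4.67, SE 0.194). The level left was 3.88% of the level alone. Within a library, the ratio of Fbn1 to Fbn2 in FPKM, which is scaled to gene length, was 51.9, 50.5 and 62.9 alone and 800, 1012 and 818 with Th17 cells. These ratios did not overlap between groups.

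**Figure D2:**
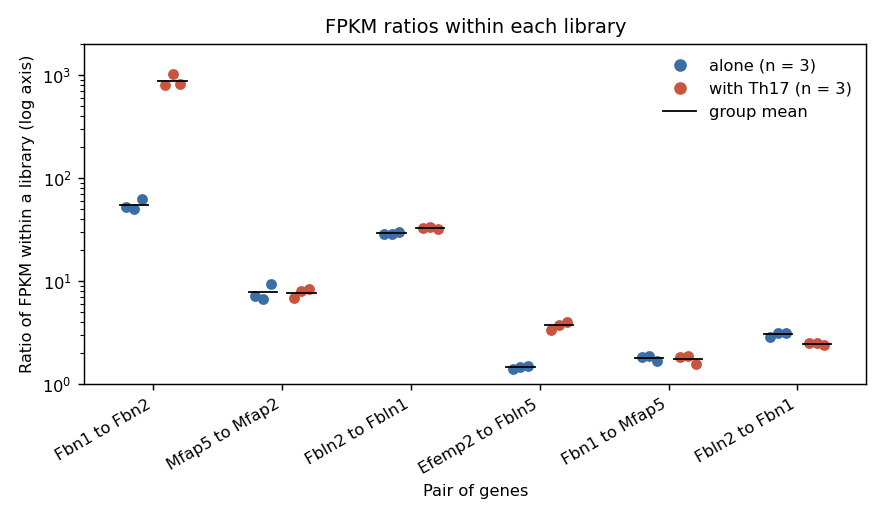
Ratio of the FPKM of related members within each library, on a log axis, with a point per library and a line at the group mean. The ratio of Fbn1 to Fbn2 sits between 50.5 and 62.9 alone and between 800 and 1012 with Th17 cells, and the ratio of Mfap5 to Mfap2 overlaps between groups.

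Among the microfibril-associated proteins Mfap4 differed most. Mfap4 (ENSMUSG00000042436, chr11:61485431-61488900, plus strand), which binds elastin and collagen, had 186, 172 and 140 counts alone and 0, 3 and 1 counts with Th17 cells. All libraries with Th17 cells were at or under the floor, and Mfap4 was at least 56.4-fold lower. The gene Mapk7 overlaps 89 of its bases on the opposite strand and had 258 to 382 counts alone and 333 to 423 with Th17 cells, ranges that overlap.

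Mfap2 (ENSMUSG00000060572, chr4:141010418-141015984, plus strand) and Mfap5 (ENSMUSG00000030116, chr6:122505845-122529290, plus strand), the MAGP proteins of the microfibril, were lower by similar amounts. Mfap2 had 155, 150 and 114 counts alone and 101, 86 and 90 with Th17 cells. Its mean went from 11.2 ± 1.33 to 7.04 ± 0.412 CPM, a log2 fold change of -0.67 (SE 0.141). Mfap5 had 3369, 3074 and 3243 counts alone and 2089, 2076 and 2257 with Th17 cells, with means of 260 ± 15.8 and 163 ± 8.19 CPM. Its log2 fold change was also -0.67 (SE 0.069), and both genes were left at about 63.0% of the level alone. The ratio of Mfap5 to Mfap2 in FPKM was 7.78 ± 1.41 alone and 7.70 ± 0.765 with Th17 cells, and these ranges overlapped.

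**Figure D3:**
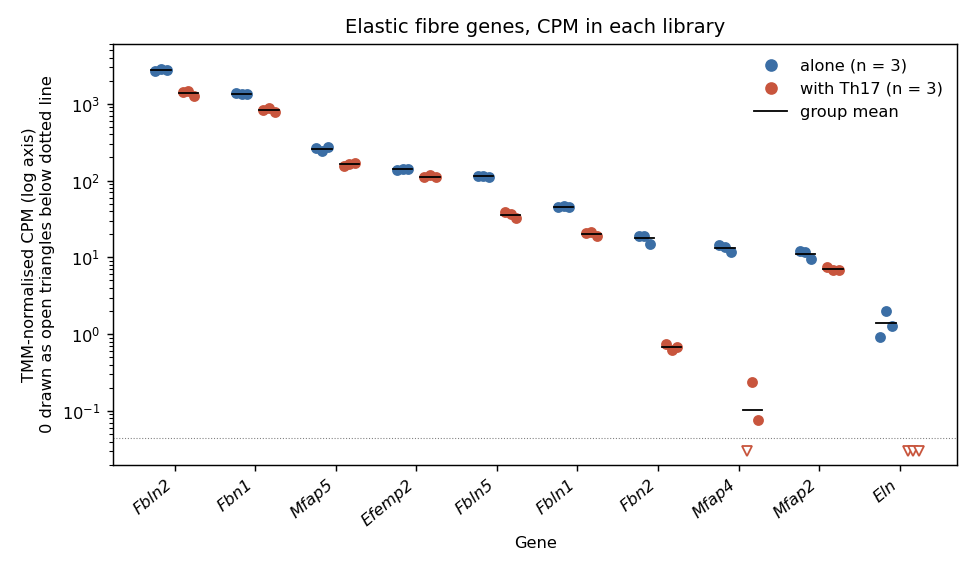
Normalised read counts (CPM, log axis) of the 10 elastic fibre genes, with a point for each of the 3 libraries per group, a line at the group mean and open triangles for libraries at 0. For every gene the libraries with Th17 cells sit below those of fibroblasts alone, and Eln is at 0 with Th17 cells.

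The fibulins, which guide elastin assembly, included the most abundant member, Fbln2. Fbln2 (ENSMUSG00000064080, chr6:91212455-91272540, plus strand), a fibulin of vessel walls and basement membranes, had 34353, 35415 and 32956 counts alone and 18871, 18788 and 16386 with Th17 cells. The mean went from 2750 ± 72.9 to 1375 ± 117 CPM. It was left at 50.0% of the level alone (log2 fold change -1.0, SE 0.069), just outside the fold limit of 2, while Fbln1 lay just inside it. Fbln1 (ENSMUSG00000006369, chr15:85205949-85286535, plus strand), a fibulin found in elastic fibres and blood, had 578, 599 and 532 counts alone and 275, 273 and 247 with Th17 cells. It was 2.26-fold lower (log2 fold change -1.18, SE 0.086).

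Fbln5 (ENSMUSG00000021186, chr12:101746565-101819055, minus strand) tethers tropoelastin to microfibrils. It had 1471, 1461 and 1334 counts alone and 521, 472 and 422 with Th17 cells. The mean went from 114 ± 1.32 to 36.0 ± 3.45 CPM, 3.17-fold lower (log2 fold change -1.67, SE 0.083). Efemp2 (ENSMUSG00000024909, chr19:5473973-5481853, plus strand), which links lysyl oxidase to elastin and is needed for crosslinking, had the smallest difference. Its counts were 1754, 1796 and 1688 alone and 1488, 1502 and 1441 with Th17 cells. The mean went from 140 ± 3.59 to 113 ± 4.56 CPM, 1.24-fold lower (log2 fold change -0.31, SE 0.061). Mus81 overlaps 173 of its bases on the opposite strand and had 155 to 235 counts alone and 211 to 263 with Th17 cells. The ratio of Efemp2 to Fbln5 in FPKM was 1.41, 1.46 and 1.5 alone and 3.39, 3.77 and 4.05 with Th17 cells, without overlap.

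By FPKM, the levels alone ran from Fbln2 (276 ± 7.94) through Fbn1 (90.0 ± 1.96), Mfap5 (50.6 ± 3.17), Efemp2 (27.9 ± 0.788), Fbln5 (19.2 ± 0.186), Fbln1 (9.50 ± 0.286), Mfap2 (6.59 ± 0.767), Mfap4 (4.94 ± 0.477) and Fbn2 (1.65 ± 0.201) to Eln (0.141 ± 0.0538). No neighbours in this order overlapped over the 3 libraries. The order, and the shares and ratios in FPKM, rest on the gene lengths that FPKM implies, from 1657 bases for Mfap2 to 14693 for Fbn1. The spread over libraries does not cover an error in these lengths. With Th17 cells the first 7 kept their order, with Fbln2 at 144 ± 11.4 and Fbn1 at 58.2 ± 3.33, and Fbn2 (0.0669 ± 0.00584) stood above Mfap4 (0.0402 ± 0.0464) and Eln (0). There Fbln1 and Mfap2, Fbn2 and Mfap4, and Mfap4 and Eln overlapped. By mean FPKM, Fbln2 ranked 118 of the 34745 genes alone and 250 with Th17 cells, and Fbln5 ranked 2199 and 5390.

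The summed FPKM of the 10 members was 479, 488 and 492 alone and 276, 288 and 259 with Th17 cells, means of 486 ± 6.26 and 274 ± 14.7. The groups did not overlap. Between the most abundant members, the ratio of Fbln2 to Fbn1 was 3.07 ± 0.153 alone and 2.47 ± 0.0738 with Th17 cells, without overlap, and that of Fbn1 to Mfap5 was 1.78 ± 0.109 and 1.75 ± 0.167, with overlap. Fbln2 made up 56.7% ± 0.977 of this sum alone and 52.5% ± 1.46 with Th17 cells. The share of Fbn1 went from 18.5% ± 0.631 to 21.2% ± 0.177 and that of Efemp2 from 5.74% ± 0.0903 to 8.56% ± 0.274. The share of Fbln5 went from 3.94% ± 0.0666 to 2.30% ± 0.146, and that of Fbn2 from 0.340% to 0.0245%. Elastin itself was 0.0289% of the sum alone. In FPKM of elastic fibre genes, these fibroblasts held mainly Fbln2, Fbn1 and Mfap5, in both groups.

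**Figure D4:**
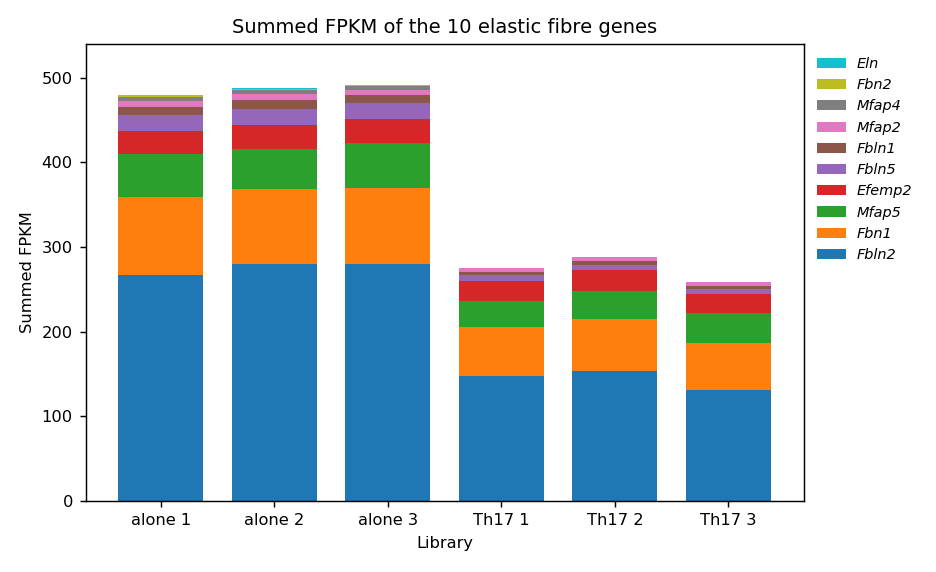
Summed FPKM of the 10 elastic fibre genes per library, stacked by gene. Bars reach 479 to 492 alone and 259 to 288 with Th17 cells, and Fbln2 is the largest block in every library.

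Partner genes of elastic fibre assembly, crosslinking, breakdown and attachment were listed by function, 57 in all, of which 51 could be tested. The list was made with earlier results of these data known, so its counts are descriptions and no test of the list. Past the threshold 11 were lower and 3 higher, where 7.78% of all genes were lower and 3.87% higher. Adjusted p-values are from the edgeR quasi-likelihood test over all genes. Without the fold limit 27 were lower, 13 higher and 11 not called, where 20.0% of all genes were lower and 17.1% higher, and their median log2 fold change was -0.28.

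Of the 6 crosslinking genes, lysyl oxidases and the copper pump Atp7a, 2 were lower and 3 higher without the fold limit. Lox, the main lysyl oxidase, had 66274, 59876 and 59745 counts alone and 126417, 110324 and 117214 with Th17 cells. It rose by 0.85 on the log2 scale (SE 0.056, adjusted p = 3.73e-06). Loxl3 rose by 1.14 (SE 0.071, adjusted p = 2.69e-06), and Loxl1, the lysyl oxidase-like enzyme most tied to elastin, fell by 1.01 (SE 0.073, adjusted p = 6.71e-06).

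Of the latent TGF-beta binding proteins, which anchor the latent growth factor to microfibrils, Ltbp4 fell by 1.07 on the log2 scale (SE 0.149, adjusted p = 0.000479). Ltbp1 fell by 0.53 (adjusted p = 0.000908) and Ltbp3 fell by 0.42 (adjusted p = 0.0038), and Ltbp2 was at 1193 CPM alone and 1192 CPM with Th17 cells. The ligands Tgfb2 (-1.85, SE 0.141, adjusted p = 9.76e-06) and Tgfb3 (-1.20, SE 0.096, adjusted p = 1.40e-05) were lower, and Tgfb1 was not called (0.05, adjusted p = 0.596).

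**Figure D5:**
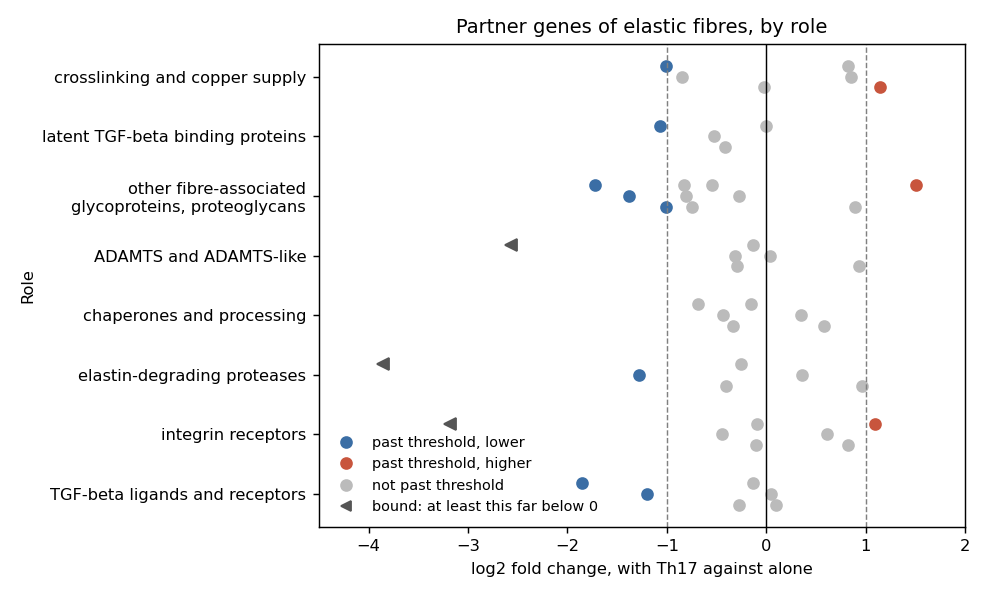
Log2 fold change of the tested partner genes by role, with Th17 cells against alone, with triangles for 3 genes given only as a bound and dashed lines at a fold change of 2. Points lie on both sides of 0, with 11 past the threshold as lower and 3 as higher.

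Among other fibre-associated glycoproteins and proteoglycans 3 of 10 tested were lower and 1 higher past the threshold. Dcn, the collagen-binding proteoglycan decorin, rose from 505 ± 3.06 to 1427 ± 50.4 CPM (log2 1.5, adjusted p = 8.73e-08). Fbln7 and Hmcn1, further fibulin-family proteins, were lower by log2 -1.72 (adjusted p = 0.00371) and -1.38 (adjusted p = 0.00462). Their relative Hmcn2 was higher, with 36, 31 and 15 counts alone and 47, 55 and 57 with Th17 cells (log2 0.89, adjusted p = 0.0353). The elastin-binding glycoproteins Emilin1 and Emilin2 were lower by log2 -0.28 (adjusted p = 0.00815) and -0.83 (adjusted p = 1.85e-05). Efemp1, the nearest relative of Efemp2, had 25, 25 and 21 counts alone and 14, 11 and 12 with Th17 cells (log2 -1.01, adjusted p = 0.0161). Its adjusted p was 0.0514 without the first and 0.0628 without the second library alone, and 0.0519 without the second library with Th17 cells. Mfap3 had 802, 859 and 809 counts alone and 150, 654 and 673 with Th17 cells (log2 -0.81, adjusted p = 0.172), and without the first library with Th17 cells log2 was -0.37 (adjusted p = 0.0108).

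Proteases that cut elastin were lower past the threshold in 2 of 6 tested. Without the fold limit 4 were lower and 2 higher. The higher ones were Mmp9, at 127.4 CPM alone and 247.5 with Th17 cells (log2 0.96, adjusted p = 1.16e-05), and Ctsk, at 96.26 and 123.2 CPM (log2 0.36, adjusted p = 0.002065). Macrophage elastase Mmp12 had 71, 70 and 52 counts alone and 20, 30 and 33 with Th17 cells (log2 -1.28, adjusted p = 0.00262). The lysosomal cathepsin Ctss had 51, 32 and 44 counts alone and 3, 1 and 2 with Th17 cells, at least 14.4-fold lower. Among the ADAMTS and ADAMTS-like proteins, several of which bind fibrillin, Adamtsl3 had 17, 14 and 21 counts alone and 0 in all libraries with Th17 cells, at least 5.94-fold lower. None of 6 chaperone and processing genes was past the threshold, while 3 were lower and 2 higher without the fold limit.

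Of 7 genes tested for integrins, the cell receptors of the matrix, 1 was lower and 1 higher past the threshold. Without the fold limit 2 were lower and 3 higher. Among these, Itga5 was lower (log2 -0.45, adjusted p = 0.000359). Itgb5 (0.61, adjusted p = 0.000116) and Itgb3 (0.82, adjusted p = 0.0371) were higher. Itgb8 had 25, 32 and 23 counts alone and 2, 0 and 0 with Th17 cells, at least 9.07-fold lower. Itgav, a chain of receptors of fibrillin and fibulin-5, had 2758, 2487 and 2397 counts alone and 7762, 6683 and 2727 with Th17 cells. Its groups overlapped, the third library with Th17 cells being near those alone, and it was called with log2 1.09 (SE 0.304, adjusted p = 0.0198). Without that library log2 was 1.43 (adjusted p = 1.63e-06), and leaving out any other library ended the call.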

How the data were processed

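RNA of 6 libraries was measured, 3 of fibroblasts alone and 3 with Th17 cells, grouped from the sample titles. The authors deposited a table of raw fragment counts per gene, made with HISAT2 2.0.4 and StringTie 1.3.3b on build mm10 per the labels and the submitters' processing notes. The authors' FPKM values stand beside the counts and are per gene length and per library total. Over the 11144 genes that had 25 counts or more in every library, FPKM implied 1 length per gene (CV at most 0.0012%). Use of strand, and assignment of fragments fitting several genes, were not given in the sources used here, so overlapping genes cannot be told apart.

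Counts were fitted in R 4.3.3 with edgeR 4.0.16 (filterByExpr with a minimum count of 10, TMM, glmQLFit, glmQLFTest, Benjamini-Hochberg over 13088 genes). The common dispersion was 0.0136. Following the study's methods, genes past the threshold had a fold change above 2 at an adjusted p below 0.05. SE was obtained as the absolute log2 fold change over the root of F. Fold bounds use the highest value of 3 counts in the lower group. Alternatives used DESeq2 1.42.0 and limma 3.58.1. Tests were also run on counts simulated with the common dispersion for every gene, which does not cover genes that vary more. Summaries used pandas 2.3.3 under Python 3.11.15, with plots from matplotlib 3.10.9.

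The members and gene lists were chosen with earlier results of these data known, so nothing here is independent support for them. The text names all members, up to 4 partners per role with the largest change past the threshold, and Lox, Loxl1, Ltbp1 to Ltbp4, Emilin1, Emilin2, Efemp1 and Mfap3 whatever their values. Tgfb1, Mmp9, Ctsk, Hmcn2, Itga5, Itgb3 and Itgb5 were added after their values were seen. Gene positions are those of the table, and 99.9% of the 34267 identifiers found in GENCODE M21 overlap their place there. Promoter windows are from RefSeq. Protein features were not analysed here.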

Additional observations from a re-analysis of the deposited data

How the results depend on the processing

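The members were chosen with this contrast in view, so their values under other settings describe the fits and are no support for the direction. In the 15 alternative fits that gave log2 fold changes, every member fitted was below 0. The count of members past the threshold (5) was 2 with at least 10 counts required in every library, a filter that Eln, Fbn2 and Mfap4 did not pass, 3 with limma on log2(FPKM + 1), 4 with glmTreat, and 10 with no fold limit. Fbln1 was not past it with glmTreat, nor Fbln1 and Eln with limma on log2(FPKM + 1). Leaving out each library gave 5 to 6, the change being Fbln2. For the partner genes, 11 lower became 7 with 10 counts in every library, 3 with limma on log2(FPKM + 1), 6 with log2(FPKM + 0.1), 4 with glmTreat, 27 with no fold limit, and 8 to 11 without each library. The 3 higher partners became 1 with glmTreat, 13 with no fold limit, and 2 to 6 without each library, with 6 when the third library with Th17 cells was left out. Over all genes, 1018 lower became 402 with limma on log2(FPKM + 1), 548 with glmTreat and 2612 with no fold limit, and 506 higher became 224, 243 and 2244. The causes were not tested, apart from the filter, the fold limits and the fewer libraries.

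Whether libraries with the same replicate number share an origin was not given. Same-number correlations of deviations were 0.016, -0.026 and -0.004, within the -0.04 to 0.046 of the other pairs, and cannot decide this. With a replicate block 6 members were past the threshold, with 1005 genes lower and 490 higher. Depth limits Eln, Mfap4 and the partners at the floor to bounds. The call of Efemp1 was also lost with DESeq2. Log2(FPKM + 1) understates changes of low genes, giving -1.31 for Fbn2.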
